A study of Homo sapiens with 6 samples.

Results

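Mixed cells are barcodes of the 10X libraries that held RNA of both species put into the capture, and 396 of the 4000 cells taken were of this kind. The members were chosen by measured values. In each library the 2000 barcodes with the most counts were taken as cells, and those with more than 10% and less than 90% of their counts on human transcripts were called mixed. The 30-cycle library gave 188 such cells (9.4%, 95% interval 8.16 to 10.8), and the 35-cycle library gave 208 (10.4%, 9.10 to 11.8). The rest were 1006 human and 806 mouse cells at 30 cycles, and 911 human and 881 mouse cells at 35 cycles. Since the share of human counts selected these cells, their number and their human share are given only as a description.

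The series held 6 samples, 1 per group, of which 2 were 10X Chromium libraries with 30 or 35 PCR cycles in their labels, read on a nanopore instrument. The study's main text gives lower combined cycle numbers for its 10X libraries than these labels. Its methods give those numbers as further cycles, run after the first ones. Both held cells of the lines labelled JJN3, an established human myeloma line, and 5TGMG1, the mouse myeloma line that the study's text spells 5TGM1. A figure legend and the cell culture section of the study name Jurkat, a human T cell line, in place of JJN3. The study's methods state that equal numbers of cells of both lines were captured together and that the cDNA was split after the first PCR cycles. Both libraries therefore read the same cells and neither is a replicate of the other. With 1 library per group no test between groups was possible, and the 95% intervals below cover counting error only.

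In a capture of mixed species, each droplet should bring together 1 cell and 1 bead that carries a barcode. A barcode with transcripts of both species can arise when cells of both species share a droplet, when RNA set free from broken cells enters it, or when reads of different droplets receive the same barcode. Such barcodes are used to judge how well a single-cell library keeps its cells apart. Myeloma cells are malignant plasma cells, which secrete immunoglobulin and depend on their endoplasmic reticulum for folding it.

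The barcodes themselves are printed for the mixed cells with the most counts, because their counts can be followed from one library to the other. Stored barcodes were 10 bases long, which is shorter than a full 10X barcode, and cells with different full barcodes could therefore carry the same stored one. The part this played in the number of mixed cells was not tested. The 6 mixed cells with the most counts over both libraries, written 5′ to 3′ as stored, were as follows.
Most counts: aagggtgagg
Next: tgttggacat
Next: agttctgtgt
Next: ggtgctgtgg
Next: atcttacacc
Fewest of the 6: tatcatgggt
The barcode aagggtgagg held 744 counts at 30 cycles, of which 219 were human, and 992 at 35 cycles, of which 297 were human. Its human share was 29.4% and 29.9%. tgttggacat held 783 and 950 counts with human shares of 76.8% and 76.5%. agttctgtgt was led by mouse RNA in both libraries, with 21.8% and 28.8% human counts. atcttacacc was led by human RNA in both, with 83.7% and 79.0%. ggtgctgtgg and tatcatgggt changed their leading species, from 45.3% to 54.2% human and from 54.2% to 49.7%. None of the 6 was single-species in either library.

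Barcodes that differ at 1 base can be confused in sequencing, so the cells 1 mismatch from a mixed cell were counted. At 30 cycles 37 of 188 mixed cells (19.7%, 14.3 to 26.1) lay 1 mismatch from another cell, against 27.8% of human and 24.4% of mouse cells. At 35 cycles it was 54 of 208 (26.0%, 20.1 to 32.5), against 25.9% and 22.7%. The interval of the mixed cells held the shares of both kinds of single-species cell at 35 cycles, and at 30 cycles that of mouse cells but not that of human cells. In each library 1 mixed cell lay 1 mismatch from cells of both species (0.53% at 30 cycles and 0.48% at 35 cycles). Single-species cells did so more often, at 1.79% and 2.09% of human and 1.36% and 1.14% of mouse cells. The neighbourhoods of the 2 mixed cells are printed with the base that differs in capitals.
Mixed cell at 30 cycles: gtaatgagga
Its mouse neighbour: gtaatgagTa
Its human neighbour: gtGatgagga
Mixed cell at 35 cycles: tgaagtgagc
Its human neighbour: tgaagtgagT
Its mouse neighbour: tgaagtgTgc
Its mixed neighbour: tgTagtgagc
The mixed cell at 30 cycles held 108 human and 29 mouse counts, its mouse neighbour 89 counts and its human neighbour 218. The mixed cell at 35 cycles held 130 human and 68 mouse counts, between a human neighbour of 407 counts and a mouse neighbour of 1076. The mean GC content of the barcodes was 48.4% ± 11.998 (SD over 188 mixed cells) at 30 cycles and 49.6% ± 11.95 (SD over 208) at 35 cycles, within the range of 47.3% to 51.4% of the means in single-species cells.

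Mixed cells held more counts than single-species cells, but fewer than a cell of each species added together. In all, 494147 counts were stored in 13857 barcodes of the 30-cycle library and 740994 in 18087 of the 35-cycle one, and the cells took 63.1% and 59.3% of them. At 30 cycles the median was 142 counts in mixed cells (lowest 76, highest 783) against 118 in single-species cells, a ratio of 1.20. At 35 cycles it was 227.5 (115 to 992) against 171, a ratio of 1.33. The sum of the human and the mouse medians was 235 and 342 counts, so that the mixed median reached 60.4% and 66.5% of it. Cutting at 2000 barcodes sets the lowest value, which was 76 counts at 30 cycles and 114 at 35 cycles. This limit raises both medians in the sum, so the comparison with the sum is a description.

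In the median, each species' part of a mixed cell was smaller than a whole cell of that species. The lower limit of 76 and 114 counts falls almost wholly on 1 species in a single-species cell. In a mixed cell it falls on both parts together, and 89 of 188 and 98 of 208 mixed cells had fewer human counts than the shallowest cell. The sizes of the parts are therefore given only as a description. The median human part was 78 counts against 117 in human cells at 30 cycles (66.7%) and 121 against 171 at 35 cycles (70.8%). The median mouse part was 68 against 115 (59.1%) and 101 against 167 (60.5%). The human part reached the human median in 57 and 59 mixed cells, and the mouse part reached the mouse median in 28 and 42. Both parts did so in 16 of 188 cells at 30 cycles and in 21 of 208 at 35 cycles. Human and mouse counts of a mixed cell were weakly related, with a Pearson correlation of 0.31 over 188 cells and 0.22 over 208 (Spearman 0.12 and 0.18), and cells of one library share its depth and the lower limit on their sum.

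**Figure D1:**
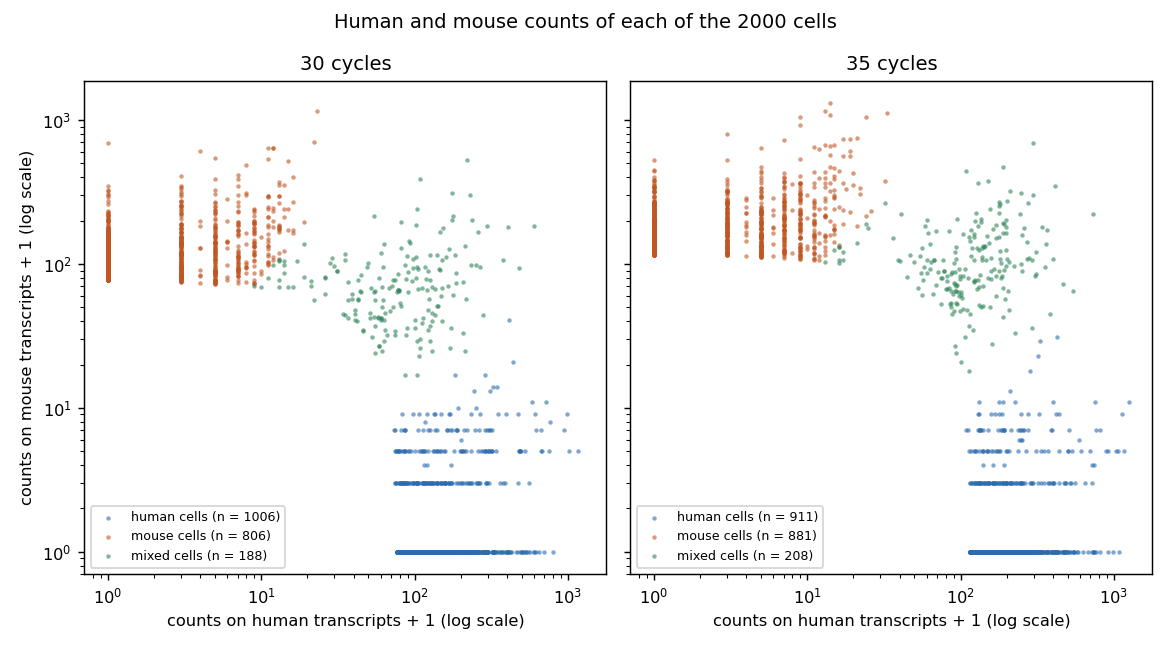
Counts on human transcripts (x axis) and on mouse transcripts (y axis) of each of the 2000 cells at 30 cycles (left) and at 35 cycles (right), both plus 1 on log scales, with 1 point per cell. The 188 and 208 mixed cells (green) fill the space between the human cells (blue) and the mouse cells (orange), and most have fewer counts of each species than a typical cell of that species.

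The share of mixed cells was highest among the cells with the most counts. The 500 deepest cells included 71 mixed ones in the 30-cycle library (14.2%, 11.3 to 17.6) and 96 in the 35-cycle library (19.2%, 15.8 to 22.9). Among the 500 shallowest it was 28 (5.6%, 3.75 to 7.99) and 20 (4%, 2.46 to 6.11). The ranks between held 46 and 43 mixed cells at 30 cycles, and 40 and 52 at 35 cycles. These shares are a description, since counts and human share chose the cells. At 35 cycles the fall was not even, since the share was 8% in the next 500 cells and 10.4% in the 500 after them.

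**Figure D2:**
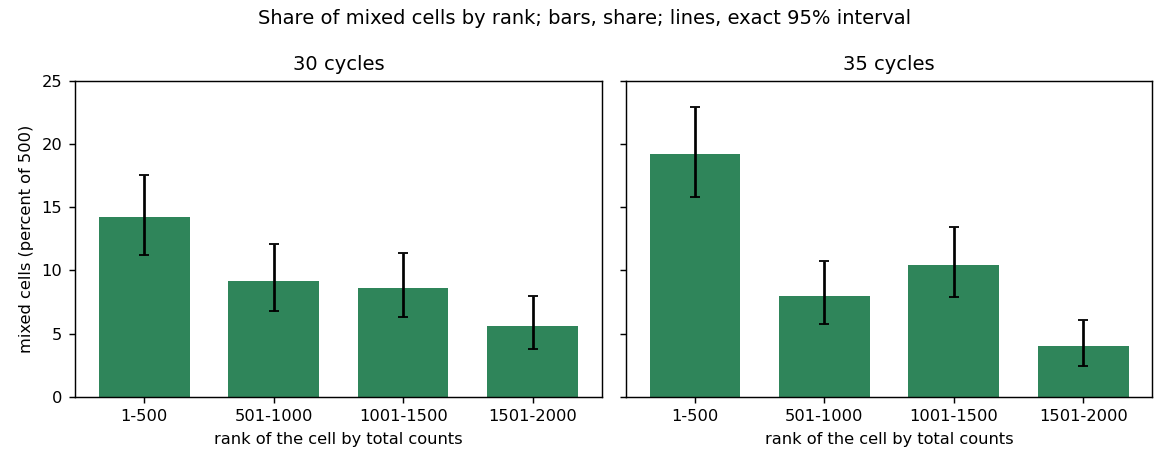
Share of mixed cells in percent (y axis) in groups of 500 cells ordered by total counts (x axis) at 30 and 35 cycles. Bars start at 0 and lines are exact 95% intervals. The share is 14.2% and 19.2% in the deepest 500 cells and 5.6% and 4% in the shallowest.

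Mixed cells ran through the whole range of human shares, with most in the middle. At 30 cycles 41 of 188 had 50% to 60% human counts, and 17 and 12 lay in the outer ranges of 10% to 20% and 80% to 90%. At 35 cycles these numbers were 46, 15 and 11 of 208. Human counts led in 109 mixed cells (58.0%) and mouse counts in 77 at 30 cycles, and in 124 (59.6%) and 83 at 35 cycles. Cells closest to the limits had 10.2% and 89.8% human counts at 30 cycles, and 10.1% and 89.7% at 35 cycles. Just outside the limits lay a mouse cell of 10% and a human cell of 91.1% at 30 cycles, and of 10% and 92.1% at 35 cycles. The lower limit cut through a denser range than the upper one: 100 and 78 cells had 5% to 10% human counts, while 22 and 12 had 90% to 95%.

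The same barcodes were mixed in the library that was not used to choose them. Of the 188 mixed cells at 30 cycles, 176 were also among the cells at 35 cycles, where 164 were mixed, 9 mouse and 3 human. In the other direction 6 human and 6 mouse cells of 30 cycles were mixed at 35 cycles. No barcode went from human to mouse or back among the 1541 cells shared by both libraries. The remaining 12 mixed cells at 30 cycles had a median of 83.5 counts there and 101 at 35 cycles, below the 114 counts needed. The 32 mixed cells found only at 35 cycles had medians of 145 and, at 30 cycles, 61 counts.

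The balance of species was carried over too. Over the 176 barcodes the human share correlated at 0.85 (Pearson) and 0.82 (Spearman) between libraries that read the same cDNA. The share moved by a median of 6.60 percentage points, by under 10 points in 125 barcodes and by over 20 points in 12. The same species led in 141 of them (80.1%). From 30 to 35 cycles the counts of the barcodes mixed in both grew 1.58-fold in the median, the human part 1.58-fold and the mouse part 1.60-fold, against 1.37-fold in human and 1.51-fold in mouse cells.

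**Figure D3:**
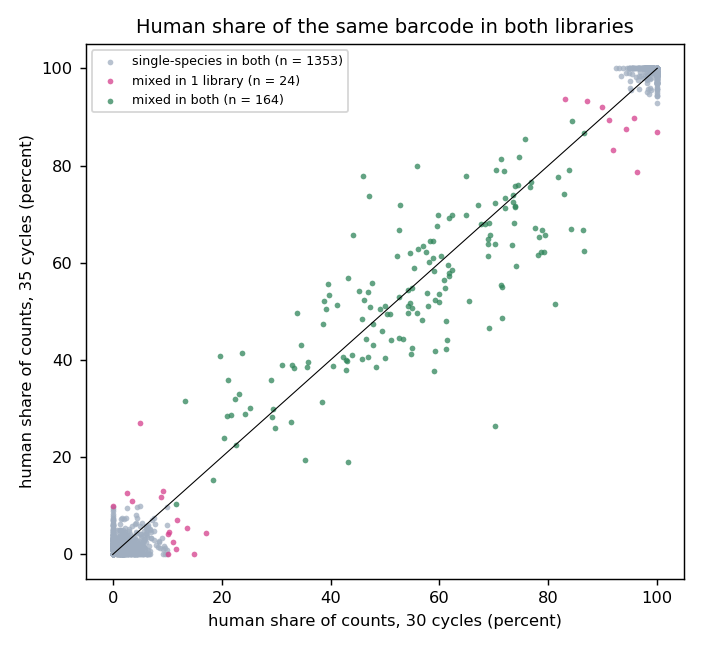
Human share of counts in percent at 30 cycles (x axis) and at 35 cycles (y axis) for the 1541 barcodes that were cells in both libraries, 1 point each, with the line of equal shares. The 164 barcodes mixed in both (green) spread along the line, and the 24 mixed in 1 library only (pink) lie mostly near 10% or 90%.

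Transcripts stored for a mixed cell at 30 cycles were found again at 35 cycles about as often as those of a single-species cell. In the 164 barcodes mixed in both, 2075 of 7673 human entries (27.0%) and 1398 of 6338 mouse entries (22.1%) were stored again. The shares were 26.5% for human entries of human cells and 25.4% for mouse entries of mouse cells. Entries of the other species were found again less often in single-species cells: 12 of 356 mouse entries in human cells (3.37%) and 161 of 834 human entries in mouse cells (19.3%).

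Mixed cells held more different transcripts than single-species cells of the same depth. They were chosen for holding transcripts of both species, so this difference is given as a description. After thinning each cell to 100 counts, the median at 30 cycles was 66 transcripts in 146 mixed cells (42 shallower ones left out). It was 61 in 1180 single-species cells (632 left out). At 35 cycles it was 68.5 in all 208 against 61, with 58 in human and 64 in mouse cells. Without thinning the medians were 64.5 against 53 at 30 cycles, and 93 against 71 at 35 cycles.

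Within each species, the transcripts of mixed cells followed those of the single-species cells. Counts were summed over cells, divided by the total on that species and scaled to an equal sum (CPM). This scales the human share that chose the cells out of the totals. The share still bears on the depth of each part, and some human transcripts were also stored in mouse cells, as given below. Transcripts with 200 or more counts over both kinds of cell were compared, and a 2-fold difference was called, which goes by size alone. Single-species cells held most of these counts, so a transcript could pass the limit through them alone. Of 87 human transcripts at 30 cycles, 0 (0%) were 2-fold higher in mixed cells and 3 (3.45%) lower. Of 107 at 35 cycles, 0 (0%) were higher and 1 (0.935%) lower. Of 78 mouse transcripts at 30 cycles, 1 (1.28%) was higher and 1 (1.28%) lower, and of 111 at 35 cycles, 1 (0.901%) was higher and 1 (0.901%) lower. Between 86.5% and 92.0% lay within 1.5-fold, and log2 CPM correlated at 0.93 to 0.97 across transcripts, which are not independent replicates.

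The human transcripts called at 30 cycles were all lower in mixed cells. KPNA5, an importin that carries proteins into the nucleus (ENST00000368564, hg38 chr6:116681211-116741867, 14 exons), had 10 counts in mixed and 220 in human cells, a log2 ratio of -1.27 (-2.42 to -0.43). It was stored in 4 of 188 mixed cells and 102 of 1006 human cells. JCHAIN, which joins immunoglobulin units into polymers (ENST00000254801, chr4:70655541-70666508), held 21 counts in mixed and 392 in human cells, and its log2 ratio was -1.07 (-1.81 to -0.47). The other, ENST00000543780, which has no entry in the annotation used, had 21 and 394 counts and was stored in all 167 cells that held JCHAIN, with equal counts in every one, so it counts as the same observation.

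None of these was called at 35 cycles. KPNA5 had fewer than 200 counts there and was not compared, and it was stored in 8 of 208 mixed and 71 of 911 human cells. The JCHAIN gene had 45 counts in mixed and 310 in human cells, a log2 ratio of -0.01 (-0.51 to 0.43), and was stored in 18 of 208 and 128 of 911 cells. The only human transcript called at 35 cycles was ENST00000531188 of RPS3, a protein of the small ribosomal subunit (chr11:75399518-75406907), with 14 and 205 counts in 7 and 89 cells.

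Mouse transcripts are given by identifier, since no mouse names were used here. The study's text names ENSMUST00000034966 as Rpl4, a protein of the large ribosomal subunit. This transcript had 68 counts in mixed and 230 in mouse cells at 30 cycles, a log2 ratio of 1.12 (0.70 to 1.51), and 105 and 790 counts at 35 cycles, a ratio of -0.06 (-0.37 to 0.23). Its share of cells at 30 cycles was also higher in mixed cells, but by less than the ratio, with 15.4% of mixed and 12.8% of mouse cells. At 35 cycles the share was 22.6% and 37.1%. ENSMUST00000027438 was lower at 30 cycles, with a log2 ratio of -1.04 (-1.88 to -0.37), and ENSMUST00000099049 at 35 cycles, at -1.18. ENSMUST00000106197 was higher at 35 cycles, at 1.03.

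Of the 70 human transcripts compared in both libraries, none was 1.5-fold apart in the same direction in both. The sign was the same in both for 43 of them (61.4%). The interval lay above 0 in both for 8 and below 0 in both for 1. Ordered by the smaller of both ratios, the highest of those above 0 in both was ENST00000536684, with no entry in the annotation, at 0.41 and 0.42 on the log2 scale. It was followed by ENST00000600213 (0.35 and 0.41) and by MT-CO2, a subunit of cytochrome c oxidase encoded in the mitochondrial genome (chrM:7586-8269), at 0.35 (0.10 to 0.59) and 0.30 (0.12 to 0.48). ZNF740, a zinc finger protein, had 0.56 and 0.27, and MT-ND4L, a subunit of respiratory complex I, 0.31 and 0.25. The lowest were NMNAT3, which makes NAD in mitochondria (ENST00000645507, chr3:139565397-139678005), at -0.40 (-0.76 to -0.08) and -0.63 (-1.02 to -0.28), and RPAP2, an RNA polymerase II phosphatase, at -0.54 and -0.38. LRRK1, RPL10 and NOPCHAP1 followed, at -0.46 and -0.27, -0.27 and -0.50, and -0.26 and -0.22. The intervals of RPAP2, LRRK1 and NOPCHAP1 held 0 in both libraries, and that of RPL10 held 0 at 30 cycles. ENST00000536684 and ENST00000600213 were also among the human transcripts most often stored in mouse cells, as given below.

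The most abundant human genes of mixed cells were those of human cells. IGLL5, an immunoglobulin lambda-like gene whose transcripts share sequence with the lambda constant genes, led in both. It took 5.13% of the human counts of mixed cells and 4.61% in human cells at 30 cycles, and 8.76% and 7.64% at 35 cycles. It was stored in 115 of 188 mixed cells (61.2%) and 767 of 1006 human cells (76.2%) at 30 cycles, in 189 of 208 (90.9%) and 885 of 911 (97.1%) at 35 cycles, and in 6 of 806 and 46 of 881 mouse cells. One read can be counted for several transcripts of IGLL5, IGLC1 and IGLV2-14, so the split among them is uncertain. MT-CO1, the largest subunit of cytochrome c oxidase, took 2.31% against 1.87% at 30 cycles and 2.50% against 2.27% at 35 cycles. EEF1A1, a translation elongation factor, took 2.04% against 2.07% and 2.77% against 2.60%. The 10 leading genes of mixed cells all lay among the 12 leading genes of human cells.

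Some markers of plasma cells were stored in mixed cells and none of those of T cells were. Of the 10 plasma cell markers, 6 were stored in mixed cells at 30 cycles and 7 at 35 cycles, with 67 and 135 counts, against 1095 and 876 counts and all 10 markers in human cells. None of the 15 T cell markers was stored in a mixed cell, and human cells held 4 and 2 counts of them. The exact upper limit of the T cell list's share of stored human counts in mixed cells was 0.0198% at 30 cycles and 0.0126% at 35 cycles, and says nothing of values below 2, which are not stored. Genes of the immunoglobulin heavy and kappa chains were also at 0 in mixed cells, and had 4 and 8 counts in human cells. Human cells likewise held more counts of the plasma cell list than of the T cell list. PRDM1, a transcription factor of plasma cells, had 28 counts in mixed and 392 in human cells at 30 cycles, and 30 and 134 at 35 cycles. MZB1, a folding factor for immunoglobulin, had 12 and 201, and 42 and 280. The share of the plasma cell list was 0.360% in mixed against 0.676% in human cells at 30 cycles, a log2 ratio of -0.91 (-1.29 to -0.55). At 35 cycles it was 0.460% against 0.440%, a ratio of 0.07 (-0.21 to 0.33).

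The human part of mixed cells held a larger share of immunoglobulin lambda and mitochondrial RNA and a smaller share of large ribosomal subunit RNA than human cells. Lambda genes took 6.68% (6.33 to 7.05) against 6.03% (5.91 to 6.14) at 30 cycles, and 11.5% (11.2 to 11.9) against 10.0% (9.88 to 10.1) at 35 cycles, a direction that turned at 30 cycles once stored values below 3 were left out (log2 ratio -0.35). The 13 protein genes of the mitochondrial genome took 13.2% (12.7 to 13.7) against 10.7% (10.6 to 10.9), and 14.4% (14.0 to 14.8) against 13.2% (13.1 to 13.3). Large ribosomal subunit genes took 3.77% (3.50 to 4.05) against 4.64% (4.54 to 4.75), and 4.60% (4.36 to 4.85) against 5.21% (5.11 to 5.31). Small ribosomal subunit genes took 1.89% against 1.83% at 30 cycles and 1.36% against 1.83% at 35 cycles. Genes of folding and secretion in the endoplasmic reticulum took 1.13% against 1.503%, and 1.33% against 1.66%. None of these shares was 2-fold apart, but with stored values below 3 left out the log2 ratio at 35 cycles moved from -0.43 to -1.495 for the small ribosomal subunit, and from 0.13 to 0.0029 for mitochondrial genes.

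The depth of the cells moved with these shares. The human part of a mixed cell had fewer counts than a human cell, and values below 2 are not stored for any cell. The 336 human cells with the fewest human counts at 30 cycles (median 86) had 7.87% lambda, 12.6% mitochondrial and 3.94% large subunit counts, and the 335 with the most (median 225) had 5.06%, 9.40% and 5.36%. At 35 cycles the 304 shallowest human cells (median 128) had 12.6%, 15.1% and 4.53%, and the 303 deepest (median 286) had 8.65%, 11.95% and 5.97%. At 35 cycles the mixed cells lay between these human cells for all 3 lists. At 30 cycles they did so for the lambda genes, while their mitochondrial share of 13.2% was above that of the shallowest human cells and their large subunit share of 3.77% was below that of the shallowest and above the 3.49% of the 335 human cells of middle depth. Mixed cells with fewer human counts than the shallowest cell had 9.39% and 14.8% lambda counts, and the others 5.99% and 10.4%. How much of the difference from human cells depth accounts for was not tested.

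**Figure D4:**
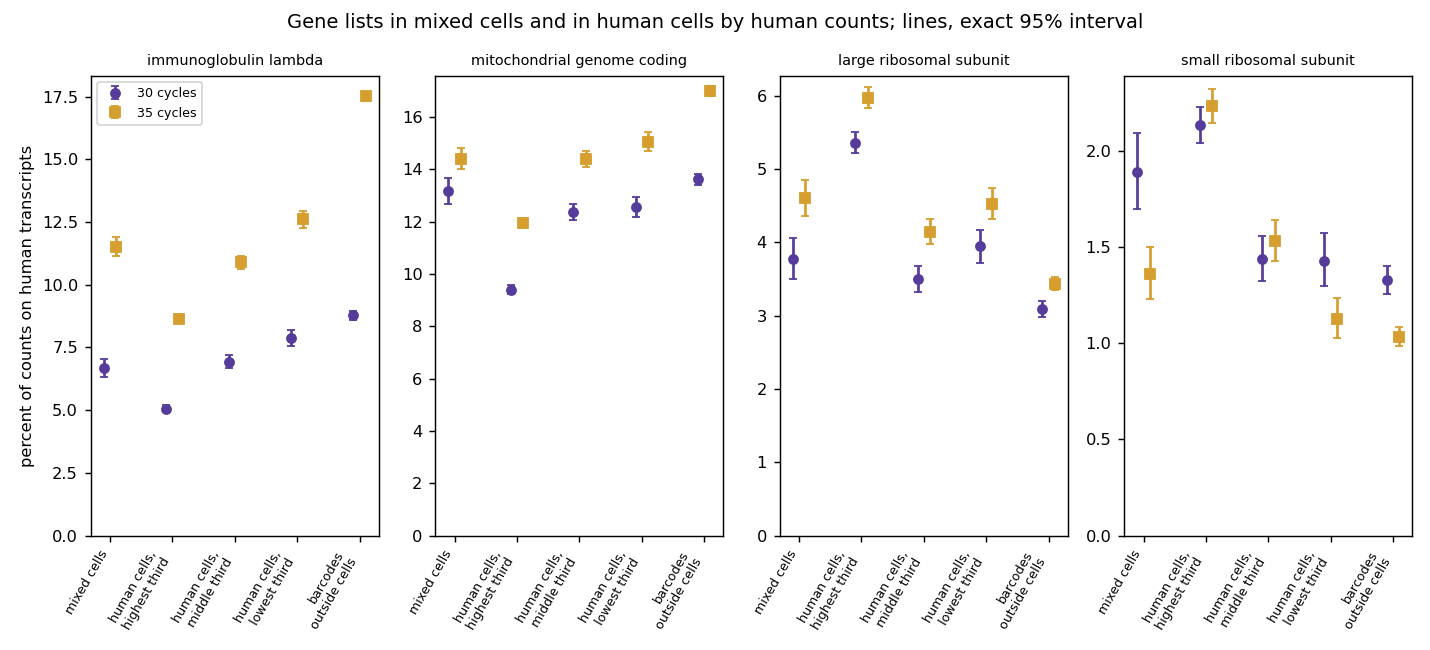
Share of the human counts in percent (y axis, from 0) taken by 4 gene lists in mixed cells, in human cells with the most, middle and fewest human counts, and in barcodes outside the cells, at 30 cycles (circles) and 35 cycles (squares), with exact 95% intervals. Lambda and mitochondrial shares are higher in shallow human cells than in deep ones, and most mixed-cell shares lie within the span of the human cells.

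For lambda, mitochondrial and large ribosomal subunit genes, the barcodes outside the cells, which hold few counts each, went further in the same direction. Lambda genes took 8.78% of their human counts at 30 cycles and 17.5% at 35 cycles, mitochondrial genes 13.6% and 17.0%, and large ribosomal subunit genes 3.09% and 3.44%. For each of these lists and in both libraries the mixed cells lay between the human cells and the barcodes outside the cells. Other lists differed. Outside the cells, small ribosomal subunit genes took 1.33% and 1.03% and endoplasmic reticulum genes 1.22% and 1.26%. For both of these the mixed cells lay between at 35 cycles only. Cell cycle genes took 0.227% and 0.331% outside the cells, below human cells, while mixed cells lay above human cells.

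Within the lists, no mitochondrial gene was 2-fold apart. All 12 of those with enough counts were higher in mixed cells at 30 cycles, by up to 0.48 on the log2 scale for MT-ATP8, a subunit of ATP synthase, and their median was 0.32 against 0.04 over all 101 human genes compared. At 35 cycles the 12 ran from -0.39 to 0.30 with a median of 0.14, against -0.05 over 110 genes. Of the 101 genes at 30 cycles, 1 (0.99%) was 2-fold higher and 13 (12.9%) were lower. Of the 110 at 35 cycles, 2 (1.82%) were higher and 10 (9.09%) lower. Counts of a gene are the sum over its transcripts, and a read can be counted for several of them, so the intervals of genes with many transcripts are too narrow, and the number of cells is given beside them.

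Ribosomal protein genes differed among themselves. Of 8 large subunit genes compared at 30 cycles and 10 at 35 cycles, 1 and 2 were 2-fold lower and none higher, beside 12.9% and 9.09% lower over all genes, with medians of -0.12 and -0.28. RPL11 was stored in 0 of 188 mixed cells at 30 cycles (exact 95% interval up to 1.94%) and in 34 of 1006 human cells (3.38%). At 35 cycles it was stored in 5 of 208 mixed and 53 of 911 human cells, with a log2 ratio of -0.29 (-0.74 to 0.12). RPL19 was stored in 0 of 208 mixed cells at 35 cycles (up to 1.76%) and in 36 of 911 human cells (3.95%). These limits are on cells with a stored value of 2 or more and not on cells that express the gene. RPLP0, of the ribosomal stalk, had a log2 ratio of -0.14 at 30 cycles and -1.09 at 35 cycles, in 5 mixed cells each time. RPL29 and RPL6, the most abundant, had -0.40 and 0.07, and 0.01 and -0.09. Of 4 small subunit genes in each library, RPS3 was lower in both, at -1.17 (3 of 188 against 49 of 1006 cells) and -1.48 (7 of 208 against 94 of 911 cells).

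Among the genes of the endoplasmic reticulum, HERPUD1, which takes part in the removal of misfolded proteins, was lower in both libraries. It had 24 counts in 4 mixed cells against 464 in 85 human cells at 30 cycles, a log2 ratio of -1.12 (-1.81 to -0.56), and 14 in 3 against 304 in 54 at 35 cycles, -1.63 (-2.56 to -0.91). HSP90B1, the chaperone GRP94, was at -2.32 at 30 cycles, with 6 counts in 2 mixed cells, and at -0.20 at 35 cycles, with 85 counts in 12. SSR2, a subunit of the translocon-associated complex, had 0.40 and -0.49, and TXNDC5, a disulfide isomerase, -0.19 and 0.23. Of the list, 2 of 4 genes compared were 2-fold lower at 30 cycles and 1 of 5 at 35 cycles, beside the 12.9% and 9.09% over all genes.

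Other lists held fewer counts. Cell cycle genes took 0.511% against 0.399% in human cells at 30 cycles and 0.808% against 0.602% at 35 cycles, and STMN1, a regulator of microtubules and the most abundant of them, had log2 ratios of 0.64 (0.15 to 1.07) and 0.82 (0.55 to 1.07), stored in 9 of 188 and 25 of 208 mixed cells. Neither reached 2-fold. Actin genes took 1.89% against 1.82% and 1.503% against 1.49%. ACTG1 was 2-fold lower at 35 cycles only, at -1.34, while ACTB, the other cytoplasmic actin, had 0.24 and 0.29. Glycolytic genes took 0.333% against 0.462%, and 0.532% against 0.603%, and GAPDH had -1.43 at 30 cycles, with 20 counts in 3 mixed cells, and -0.16 at 35 cycles, with 122 counts in 15. Elongation factors took 2.13% against 2.19% and 2.89% against 2.80%, histone chaperones 1.10% against 1.16% and 1.46% against 1.53%, and high mobility group genes 0.215% against 0.199% and 0.382% against 0.389%. MHC class I, ferritin and stress response genes had at most 27 counts in the mixed cells of a library. FTH1, the ferritin heavy chain, was at 0 in mixed cells of both.

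Counts on the other species were also stored in single-species cells. Mouse cells held 2156 human counts (1.88% of their counts) at 30 cycles and 3227 (1.75%) at 35 cycles, and human cells held 992 mouse counts (0.61%) and 806 (0.40%). Some human counts were found in 52.4% and 57.0% of mouse cells, and mouse counts in 23.5% and 20.7% of human cells. Single-species cells were defined by the limit of 10%, so these averages had to lie below it and say nothing of the limit itself.

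A few human transcripts made up most of the human counts in mouse cells. With 20 or more counts there and 10% or more of their level per cell in human cells, 11 transcripts at 30 cycles and 12 at 35 cycles took 61.0% and 62.3% of those counts, and 8 and 9 of them had more counts per cell in mouse than in human cells. No mouse transcript met the same limits in human cells. ENST00000545075, with no entry in the annotation, had 253 counts in mouse cells, 29 in human cells and 41 in mixed cells at 30 cycles. Both transcripts of PABPN1, a poly(A)-binding protein, had 344 counts in mouse cells and 71 in human cells at 35 cycles, and 43 and 45 in mixed cells. RNA5-8SP6, a ribosomal RNA pseudogene, had 193 counts in mouse cells and 0 in human cells at 35 cycles, and 28 in mixed cells. In the library named, counts per cell of each of these transcripts were higher in mouse cells than in human cells, with mixed cells between them.

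These transcripts took 3.17% of the human counts of mixed cells at 30 cycles and 3.34% at 35 cycles, against 1.92% and 2.08% in human cells. In mixed cells led by mouse RNA they took 4.86% and 4.62%, and in those led by human RNA 2.67% and 2.86%. PABPN1 was one of the 2 genes 2-fold higher in mixed cells at 35 cycles, at 2.08 (1.67 to 2.47), with 88 counts in 18 mixed cells. The other was HNRNPA2B1, an RNA-binding protein of splicing, at 1.04, with 68 counts in 10 mixed cells. Without these transcripts the mixed cells numbered 181 (9.05%) in the 30-cycle library and 202 (10.1%) in the 35-cycle library.

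The lesser part of a mixed cell was compared with the leading part. The human part of the 77 cells led by mouse RNA at 30 cycles had 6.61% lambda and 14.2% mitochondrial counts, against 6.65% and 12.9% in the 109 cells led by human RNA, and 2.17% (1.76 to 2.65) against 4.24% (3.92 to 4.59) large ribosomal subunit counts. At 35 cycles the lambda share was 12.9% (12.2 to 13.7) in the 83 cells led by mouse RNA and 11.01% (10.6 to 11.4) in the 124 led by human RNA, while the large subunit share was 4.60% and 4.62%. The difference in large subunit counts was thus seen at 30 cycles and not at 35 cycles. The 10 most abundant mouse transcripts of mouse cells took 14.0% of the mouse part in cells led by human RNA and 11.6% in cells led by mouse RNA at 30 cycles, and 15.2% and 12.5% at 35 cycles, against 10.4% and 11.4% in mouse cells.

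Human transcripts of mixed cells were slightly shorter than those of human cells. The median annotated length, weighted by counts, was 2038 bases against 2239 at 30 cycles and 1542 against 1635 at 35 cycles, with 1888 and 1361 in barcodes outside the cells. Retained-intron transcripts took 8.21% against 8.57% and 5.92% against 6.73%, and transcripts subject to nonsense-mediated decay 4.75% against 5.05% and 4.12% against 4.52%. Protein-coding transcripts took 69.7% against 70.0% and 70.8% against 71.3%. These lengths are those of the annotated transcripts and not of the reads.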

How the data were processed

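The deposited 10X values are UMI counts for each pair of barcode and Ensembl transcript, left unnormalized by the authors. Their methods give base calling with Guppy, mapping with minimap2 to human and mouse transcripts, and UMI counting with UMI-tools. The submitters' processing notes name hg38. The smallest stored value was 2, so a lower entry is missing and not 0. Species came from the transcript prefix. Of 33156 human identifiers, 30959 (93.4%) matched GENCODE release 44, and 0 of 24232 mouse identifiers could be named.

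Counts were summed over cells with Python 3.11.15, scipy 1.17.1, pandas 2.3.3 and numpy 2.4.6. Log2 ratios used CPM of 1 species with 0.5 counts added. Intervals are exact (Clopper-Pearson for shares, conditional binomial for ratios) and cover counting error only, since PCR copies and shared reads are not independent molecules. Scripts were tested on simulated data. No doublet caller was run. The named genes were the most abundant, those furthest apart in both libraries, those crossing species and up to 4 of each of 18 lists. The members and lists were chosen with earlier results of these data known. Drop-seq samples were not used here.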

Additional observations from a re-analysis of the deposited data

Results flagged for a closer look

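Chaperone genes took a larger share of the human counts of mixed cells than of human cells at 30 cycles and a smaller one at 35 cycles. The log2 ratio of the shares was 0.48 (0.23 to 0.72) at 30 cycles and -0.26 (-0.44 to -0.09) at 35 cycles. This stood out because the directions were opposite in the 2 libraries, and the difference was not tested. The shares were 0.861% against 0.617% at 30 cycles, with 160 counts in 26 mixed cells, and 1.04% against 1.25% at 35 cycles, with 305 counts in 37 mixed cells. HSP90AB1, a cytosolic chaperone and the most abundant of the list, had a log2 ratio of 0.57 (0.22 to 0.88) with 92 counts in 12 mixed cells, and of -0.55 (-0.79 to -0.32) with 168 counts in 21. HSPA8, a constitutive heat shock protein, had 0.62 and 0.49. Human cells of different depth also differed, with 0.671% in the 336 shallowest and 0.580% in the 335 deepest at 30 cycles, and 1.53% in the 304 shallowest and 0.980% in the 303 deepest at 35 cycles.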

How the results depend on the processing

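No paired analysis was possible because each group held 1 library. Of the alternatives, 144 of 199 left a value within its interval or, for a count of transcripts, within 1.5 times, and 55 moved it. A pseudocount of 2 left 1 human transcript 2-fold apart at 35 cycles, but a higher one in place of the lower one. The same pseudocount was added to both sets, whose totals were 29342 and 199308 human counts in mixed and human cells. A larger pseudocount therefore raises the ratio of any transcript with fewer counts in mixed than in human cells. The share of mixed cells moved from 9.4% and 10.4% to 15.6% and 14.95% with limits of 5% and 95%, and to 11.7% and 13.6% in the 1000 deepest barcodes. At 30 cycles it was 7.95% with limits of 20% and 80%, and 11.01% among barcodes with at least 100 counts. The ratio of transcripts at 35 cycles fell from 1.12 to 1.077 with 50 counts and 1.072 with 200. A minimum of 100 counts gave 23 human transcripts 2-fold apart in each library, and 13 and 10 mouse transcripts. With 400 it gave 0 human at 35 cycles and 0 mouse in both libraries. Limits of 20% and 80% gave 5 and 2 human and 1 and 1 mouse transcripts, a pseudocount of 2 gave 1 human and 1 mouse at 30 cycles, scaling by the median of ratios gave 2 human and 1 mouse at 35 cycles, and barcodes mixed in both libraries gave 4 human at 35 and 1 mouse at 30 cycles. With values below 3 left out, the log2 ratio of a list was -0.354 and 0.052 for lambda genes, -0.723 and -0.418 for the large ribosomal subunit, 0.330 for histone chaperones and -0.260 for elongation factors at 30 cycles, and at 35 cycles 0.0029 for mitochondrial genes, -1.495 for the small ribosomal subunit, -0.652 for the endoplasmic reticulum and -0.848 for chaperones, which gave no value at 30 cycles. As a mean over cells it was -0.371 and -0.133 for actin genes, 0.184 for mitochondrial genes and -0.532 for histone chaperones at 30 cycles, and 0.287 for lambda genes and -0.072 for elongation factors at 35 cycles. Leaving out the 12 human transcripts found in mouse cells was chosen after seeing the data and moved no value. Called human genes had counts in few mixed cells.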
